A study of Mus musculus with 12 samples.

Results

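Collagens are the main structural proteins of the lung's extracellular matrix, and each is built from chains encoded by separate genes. The collagen chain genes described here are the rows of the deposited gene table whose symbol is Col, a number, a and a second number. This rule found 44 genes among 38349, with no symbol repeated. They were divided into 11 fibrillar collagens, 8 basement membrane collagens and 25 others. Bulk RNA was sequenced from mouse lung in 12 libraries, 3 in each of 4 groups. The genotype label reads wildtype for every library. Control is the study's normal group, and ALI is its model of acute lung injury, which the series title attributes to hypoxia and lipopolysaccharide (LPS, a bacterial cell wall component that provokes inflammation). The MSC and tpMSC groups are named as treated ones, and the title places the treatments in this injury. MSC is the usual short form for mesenchymal stromal cells, and the labels do not say what "tp" stands for. The sources used here give no dose, route, time after injury, strain or age, and the labels do not say whether replicates are separate animals. The p-values below therefore measure the spread between these libraries, which may be technical.

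Each collagen molecule is a triple helix of chains that must match in type, so the chains of one type are usually made together. Fibrillar collagens (types I, III and V in lung) pack into the banded fibrils that carry load in airway walls, vessels and the interstitium. Type IV collagen forms the sheet-like network of basement membranes, on which alveolar epithelium and capillary endothelium sit, and fibril-associated and beaded-filament collagens link fibrils to each other and to cells. In the alveolus a network of Col4a3, Col4a4 and Col4a5 chains lies beside the widespread network of Col4a1 and Col4a2 chains.

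Library totals ran from 53083002 to 70209229 read counts, of which collagen genes took 0.426% to 0.734%. Levels are given as the deposited FPKM (fragments per kilobase of transcript, scaled to the library's mapped fragments), which can be compared between genes because it is scaled by length. Changes are log2 fold changes ± SE from edgeR's quasi-likelihood test on counts, fitted on all 22915 genes that passed a filter on low counts, with p-values adjusted by the Benjamini-Hochberg method over all of them. A gene was called at an adjusted p under 0.05. Of the 44 collagen genes 40 passed the filter, all 11 fibrillar and all 8 basement membrane genes and 21 of the 25 others, and 30 were called in at least 1 of the 6 comparisons. A gene expressed in 1 group only could pass the filter through that group. MSC replicate 2 stood apart, with a summed fibrillar collagen level of 325 FPKM against 194 and 164 in the other MSC libraries. Many of the results that rest on it, though not all, are given with and without it. In bulk tissue, fewer cells of a type and less RNA per cell cannot be told apart. Neutrophil markers, which are not collagen makers, moved strongly with the groups. In ALI, where 20.2% of all tested genes were called higher, 10 of the 10 markers were called higher. Their summed level was 146 to 240 FPKM in Control, 3824 to 4316 in ALI, 482 to 1000.1 in MSC and 473 to 622 in tpMSC, and their part in the collagen values was not tested.

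In injured lung the calls among the other collagens were nearly all downward, and type IV split by network. Of the tested fibrillar collagens 27.3% were called higher and 18.2% lower, near the shares of all tested genes given next. In ALI against Control 7 of the 40 tested collagen genes were called higher and 17 lower, where 20.2% of all tested genes were called higher and 19.6% lower. The collagen share called higher, 17.5%, was near that background, and the share called lower was 42.5%. The genes called higher were Col4a1, Col4a2 and Col15a1 among basement membrane collagens, Col1a2, Col3a1 and Col5a2 among fibrillar collagens, and the transmembrane collagen Col23a1. The genes called lower included 11 of 21 tested others, 4 of 8 basement membrane collagens and 2 of 11 fibrillar ones. Among the fibrillar calls, those of Col1a2 (higher) and Col2a1 (lower) were lost under most of the alternative settings described below. The median log2 fold change was -0.66 for the others, -0.19 for basement membrane and 0.20 for fibrillar collagens, against -0.02 for all genes tested. In the treated groups the calls against ALI were, but for 1, upward, while Col4a1, Col4a2 and Col3a1 were not called different from ALI. Because the ALI libraries enter ALI against Control and both comparisons of treated lung with ALI, the values of these comparisons are not independent and are given side by side.

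**Figure D1:**
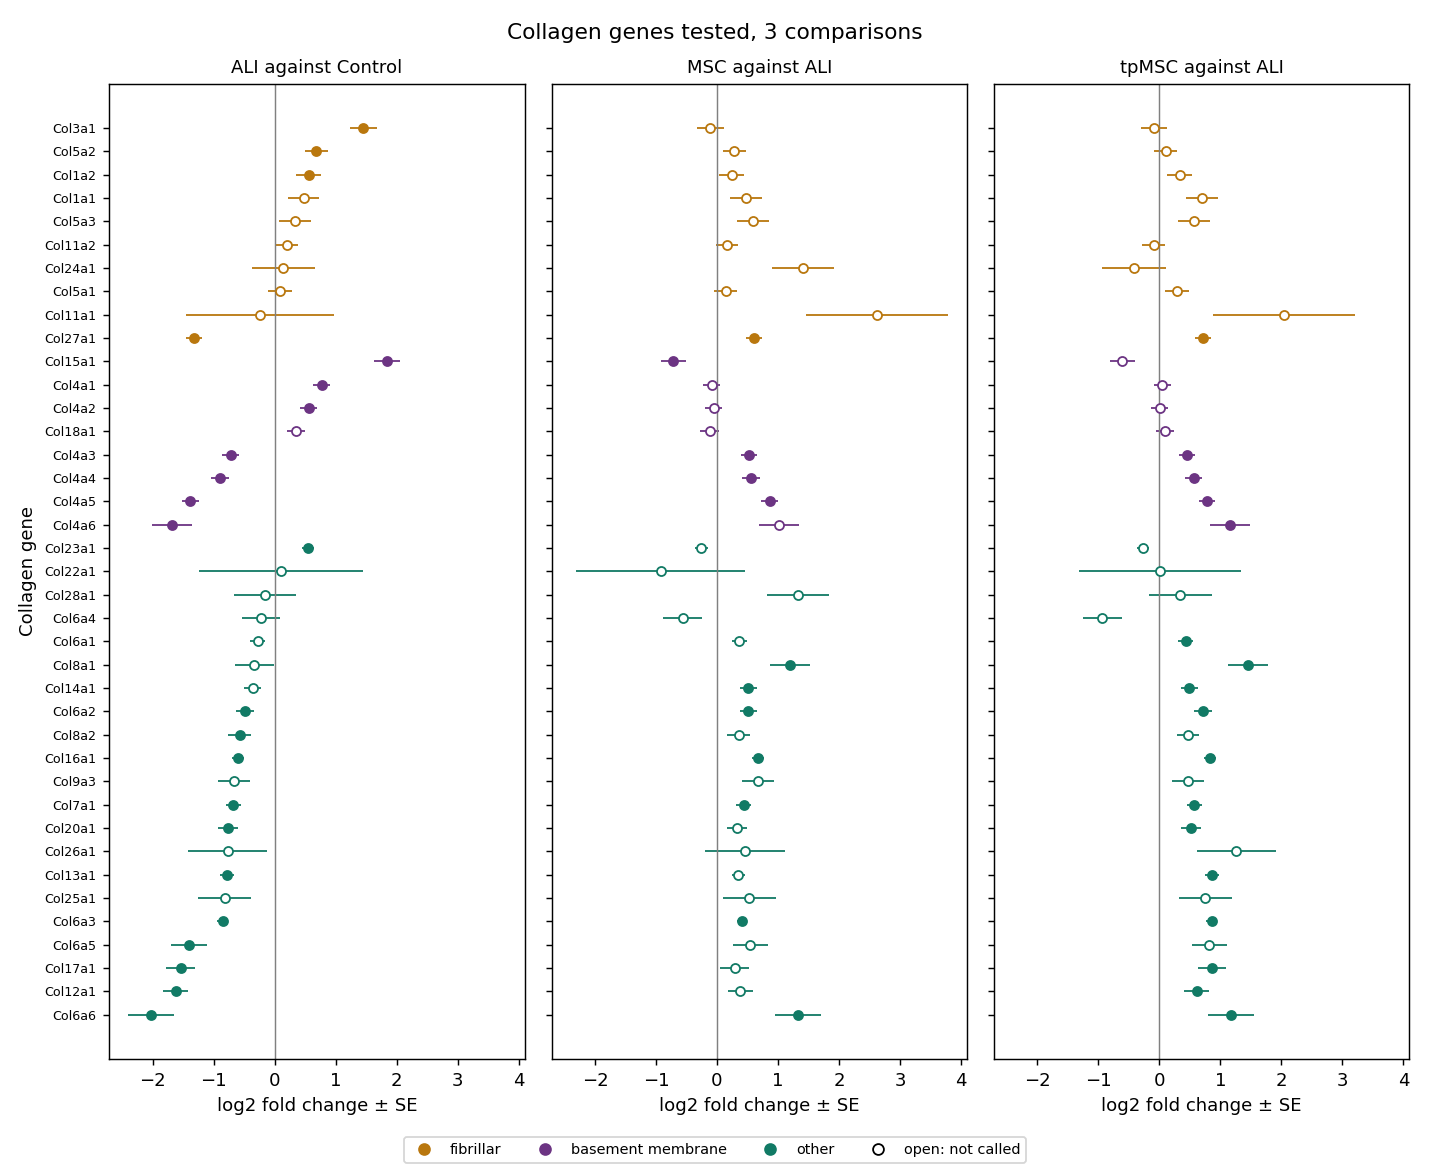
Log2 fold change (x axis, ± SE) of 39 tested collagen genes (y axis) in ALI against Control, MSC against ALI and tpMSC against ALI, where filled points are called at an adjusted p under 0.05 and open points are not. Col2a1, with no count in ALI, is left out. In ALI against Control most of the others lie left of 0, and in both other panels most of them lie right of 0, while Col3a1, Col4a1 and Col4a2 lie right of 0 in the left panel and near 0 in the others.

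Col4a1 and Col4a2 encode the 2 chains of the type IV network found in nearly every basement membrane, and in every Control library they were the collagen genes with the highest FPKM. Together they made up 31.0% to 42.9% of the collagen FPKM of a library. The genes lie head to head on chromosome 8, Col4a1 (ENSMUSG00000031502) at chr8:11198423-11312826 on the minus strand and Col4a2 (ENSMUSG00000031503) at chr8:11312805-11449287 on the plus strand, and their annotated ends overlap by 22 bases (GRCm38, GENCODE M21). The windows of 300 bases around their starts, 250 before to 50 after, are shown because the pair shares its start region, the windows having 78 bases in common, and was called in the same direction. They come from RefSeq (GRCm38.p6), at chr8:11312777-11313076 for Col4a1 and chr8:11312555-11312854 for Col4a2, each on its own gene's strand. Capitals mark the CCAAT box, the GC box (GGGCGG) and the TATA box (TATAAA) on either strand.
Col4a1: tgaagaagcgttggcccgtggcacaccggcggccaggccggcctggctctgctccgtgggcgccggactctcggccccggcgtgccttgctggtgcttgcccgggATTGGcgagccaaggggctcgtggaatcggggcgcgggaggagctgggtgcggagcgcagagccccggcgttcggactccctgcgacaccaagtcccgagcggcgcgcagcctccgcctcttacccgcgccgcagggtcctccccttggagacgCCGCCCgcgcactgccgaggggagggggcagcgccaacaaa
Col4a2: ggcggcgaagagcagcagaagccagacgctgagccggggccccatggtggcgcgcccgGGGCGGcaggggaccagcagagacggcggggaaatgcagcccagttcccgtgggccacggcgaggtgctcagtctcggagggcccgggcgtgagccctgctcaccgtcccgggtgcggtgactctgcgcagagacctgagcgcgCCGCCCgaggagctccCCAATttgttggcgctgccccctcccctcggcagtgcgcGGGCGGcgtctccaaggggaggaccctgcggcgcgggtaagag
The Col4a1 window held 1 CCAAT box and 1 GC box, and the Col4a2 window 1 CCAAT box and 3 GC boxes, with a GC content of 74.0% and 73.7% against a median of 52.7% over all windows. The CCAAT box occurs in 37.4% of all 32851 mouse windows and in 13 of 38 windows of collagen genes, and the GC box occurs in 35.7% of all and in 23 of 38. A match is a description of the letters and does not show that a factor binds there. The table held 38 windows for 35 of the 44 collagen genes.

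Both transcripts rose in injury and were not called different from ALI after either treatment. Col4a1 measured 96.0, 86.8 and 81.9 FPKM in Control and 138, 122 and 173 in ALI, then 121, 157 and 145 in MSC and 141, 147 and 169 in tpMSC. Every injured library, treated or not, lay above every Control library, and the ALI, MSC and tpMSC groups overlapped. The change was 0.77 ± 0.14, edgeR adjusted p 0.00102 in ALI against Control, -0.08 ± 0.14, edgeR adjusted p 0.775 in MSC against ALI and 0.05 ± 0.14, edgeR adjusted p 0.835 in tpMSC against ALI. Col4a2 measured 83.7, 76.7 and 76.4 FPKM in Control and 111, 93.7 and 129 in ALI, then 91.4, 120.5 and 121 in MSC and 101, 113 and 128 in tpMSC. The order of the groups was the same, with Control alone below the other three. Its change in ALI against Control was 0.56 ± 0.14, edgeR adjusted p 0.00792. Against Control, Col4a1 stayed higher in MSC (0.69 ± 0.14, edgeR adjusted p 0.00622) and in tpMSC (0.82 ± 0.14, edgeR adjusted p 0.00343). Col4a2 was also called higher in MSC (0.50 ± 0.14, edgeR adjusted p 0.0284) and tpMSC (0.57 ± 0.14, edgeR adjusted p 0.0197). The MSC call was lost without any 1 Control replicate, MSC replicate 2 or MSC replicate 3 (edgeR adjusted p 0.0594 to 0.0946, and 0.0929 without MSC replicate 2). The tpMSC call was lost without Control replicate 2, Control replicate 3 or tpMSC replicate 3 (edgeR adjusted p 0.0638 to 0.0724).

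The chains of the second type IV network moved the opposite way. Col4a3, Col4a4 and Col4a5 are the chains whose loss causes Alport disease of kidney, ear and eye, and in lung their network belongs to the alveolar basement membrane. Col4a3 measured 30.1, 27.8 and 27.9 FPKM in Control, 16.4, 18.6 and 15.0 in ALI, 25.0, 19.3 and 29.9 in MSC and 22.7, 22.5 and 24.3 in tpMSC. All 3 ALI libraries were below all libraries of the other groups, and MSC overlapped Control. Col4a4 measured 29.3, 26.5 and 23.3 FPKM in Control, 13.5, 15.5 and 11.6 in ALI, 21.1, 16.8 and 24.2 in MSC and 21.8, 20.6 and 18.6 in tpMSC, and again ALI alone was lowest without overlap. Col4a5 measured 21.0, 17.6 and 20.2 FPKM in Control, 6.60, 8.26 and 6.75 in ALI, 13.8, 10.8 and 16.2 in MSC and 12.5, 12.7 and 12.6 in tpMSC. Here the treated libraries lay between the groups, above every ALI library and below every Control library. Col4a6, the partner of Col4a5 in some smooth muscle and epithelial basement membranes, was near the floor at 0.06 to 0.30 FPKM and was lowest in ALI (0.09, 0.06 and 0.06).

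In ALI against Control all 4 of these chains fell, Col4a5 by the widest margin among the 3 abundant ones. The changes were -0.72 ± 0.14, edgeR adjusted p 0.00132 for Col4a3, -0.90 ± 0.14, edgeR adjusted p 0.000463 for Col4a4, -1.38 ± 0.14, edgeR adjusted p 1.86e-05 for Col4a5 and -1.68 ± 0.32, edgeR adjusted p 0.00158 for Col4a6. None of these 4 calls was lost under any of 19 alternative settings. Col4a5 rose against ALI in MSC (0.87 ± 0.14, edgeR adjusted p 0.00296) and in tpMSC (0.78 ± 0.14, edgeR adjusted p 0.00205), and both calls held under every alternative. Col4a3 rose in MSC (0.52 ± 0.14, edgeR adjusted p 0.032) and tpMSC (0.45 ± 0.14, edgeR adjusted p 0.0321), and Col4a4 rose in MSC (0.56 ± 0.14, edgeR adjusted p 0.0307) and tpMSC (0.56 ± 0.14, edgeR adjusted p 0.0157). All 4 calls were lost without ALI replicate 1, without ALI replicate 3 and without replicate 1 of the treated group, with edgeR adjusted p up to 0.116. Col4a6 was called in tpMSC against ALI (1.16 ± 0.32, edgeR adjusted p 0.0235) and not in MSC against ALI (1.02 ± 0.32, edgeR adjusted p 0.0694). The tpMSC call was lost in both limma fits and without ALI replicate 2, ALI replicate 3, tpMSC replicate 1 or tpMSC replicate 2 (adjusted p 0.0629 to 0.0972), and the MSC comparison was called by DESeq2 (adjusted p 0.0299) and in edgeR without MSC replicate 2 (adjusted p 0.027). Against Control, Col4a5 remained lower in MSC (-0.52 ± 0.14, edgeR adjusted p 0.0222, but 0.0631 without MSC replicate 2, 0.081 without Control replicate 1 and 0.0644 without Control replicate 3) and in tpMSC (-0.60 ± 0.14, edgeR adjusted p 0.0132, edgeR adjusted p 0.0556 without Control replicate 1), while Col4a3 and Col4a4 were not called.

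Like Col4a1 and Col4a2, these genes are arranged as head-to-head pairs. Col4a4 at chr1:82448423-82586849 (minus strand) and Col4a3 at chr1:82586921-82722059 (plus strand) are 71 bases apart, and Col4a6 at chrX:141165403-141474076 (minus) and Col4a5 at chrX:141475385-141689234 (plus) are 1308 bases apart. All 3 head-to-head pairs were called in one direction within the pair in ALI against Control. The windows of Col4a4 (chr1:82586800-82587099, minus strand), which spans the gap to Col4a3, and of Col4a5 (chrX:141475169-141475468, plus strand) are shown to set beside those of the rising pair, with the same letters in capitals.
Col4a4: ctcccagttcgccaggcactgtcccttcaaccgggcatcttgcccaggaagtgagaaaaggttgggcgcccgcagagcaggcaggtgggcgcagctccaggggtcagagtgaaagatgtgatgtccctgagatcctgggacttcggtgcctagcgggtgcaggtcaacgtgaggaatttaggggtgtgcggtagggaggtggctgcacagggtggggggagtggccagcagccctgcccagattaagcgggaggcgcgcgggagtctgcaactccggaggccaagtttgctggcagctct
Col4a5: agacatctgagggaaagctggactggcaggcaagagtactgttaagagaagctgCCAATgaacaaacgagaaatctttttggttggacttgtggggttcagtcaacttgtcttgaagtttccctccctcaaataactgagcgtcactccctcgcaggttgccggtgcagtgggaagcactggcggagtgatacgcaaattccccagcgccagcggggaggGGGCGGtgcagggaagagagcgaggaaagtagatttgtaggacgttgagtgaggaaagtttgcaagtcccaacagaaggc
The Col4a4 window held none of the 3 motifs and had 63.3% GC, and the Col4a5 window held 1 CCAAT box and 1 GC box with 52.7% GC. Col4a3 shares 563 exonic bases (5.65% of its own) with the opposite-strand gene C430014B12Rik. The strand setting of the counting is not given in the sources used here, so part of its count could come from that gene.

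The remaining basement membrane collagens, Col15a1 and Col18a1, carry heparan or chondroitin sulfate chains and release anti-angiogenic fragments, endostatin being that of Col18a1. Col15a1 had the largest rise of any collagen gene in injury. Its level was 1.15, 0.98 and 0.92 FPKM in Control, 2.83, 3.20 and 4.40 in ALI, 1.78, 2.79 and 1.99 in MSC and 2.32, 1.93 and 2.71 in tpMSC. Every ALI library was above every other library, and the treated groups lay between ALI and Control without touching either. The change was 1.83 ± 0.21, edgeR adjusted p 4.54e-05 in ALI against Control, -0.72 ± 0.21, edgeR adjusted p 0.047 in MSC against ALI and -0.61 ± 0.21, edgeR adjusted p 0.0517 in tpMSC against ALI. The MSC call was lost under 15 of 19 alternatives, among them leaving out ALI replicate 3 (edgeR adjusted p 0.19). The comparison of tpMSC with ALI was called by DESeq2 (adjusted p 0.0171). In edgeR it was called without ALI replicate 1, MSC replicate 1, MSC replicate 2 or tpMSC replicate 3 (adjusted p 0.02985 to 0.047). Against Control Col15a1 was called higher in both MSC (1.12 ± 0.21, edgeR adjusted p 0.0041) and tpMSC (1.23 ± 0.21, edgeR adjusted p 0.00348). Col18a1 measured 7.06, 7.37 and 8.64 FPKM in Control, 9.65, 8.82 and 9.66 in ALI, 8.11, 10.4 and 8.27 in MSC and 9.08, 8.60 and 12.8 in tpMSC. In the main fit it was not called in any comparison. Its change in ALI against Control was 0.35 ± 0.15, edgeR adjusted p 0.0868, although the ALI libraries lay above all Control libraries. That comparison was called in edgeR with only the 2 groups compared (adjusted p 0.00698) and without tpMSC replicate 3 (0.0247). For tpMSC against Control, Col18a1 was called by DESeq2 (adjusted p 0.02995) and in edgeR without MSC replicate 2 (adjusted p 0.0482).

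**Figure D2:**
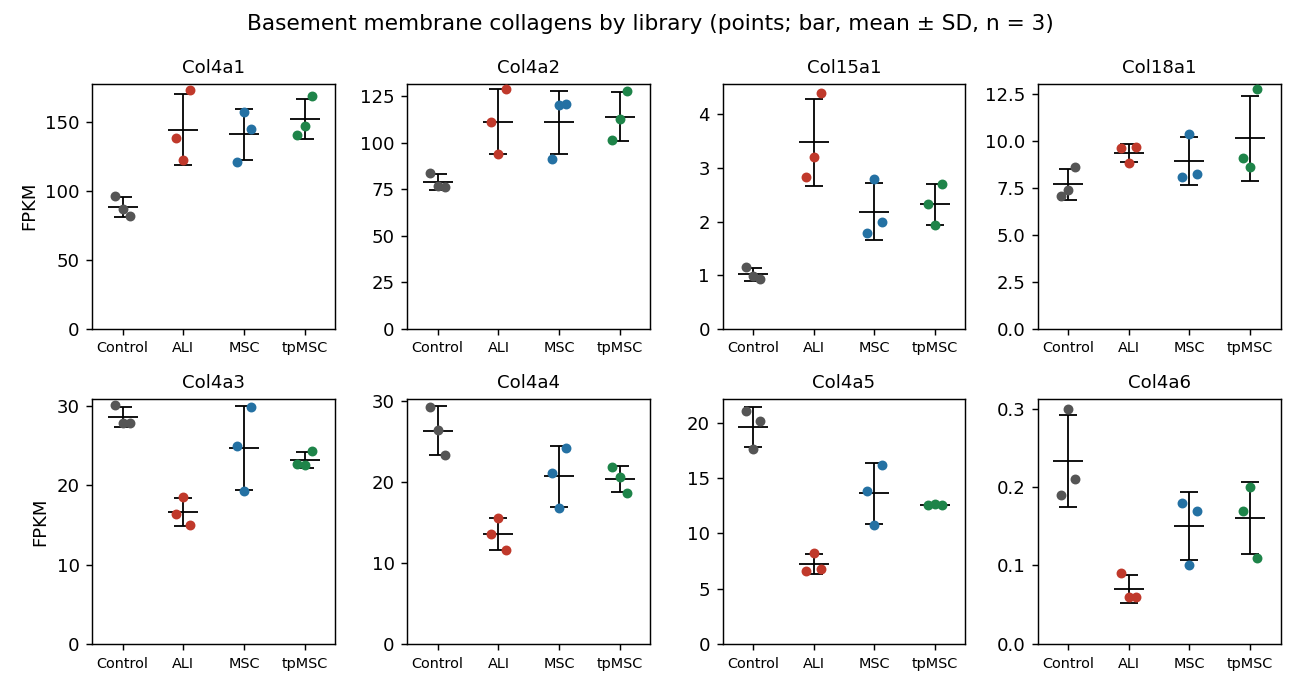
FPKM of the 8 basement membrane collagens (y axis) in each library of the 4 groups (x axis), with points for libraries and bars for the mean ± SD (n = 3). Col4a1, Col4a2 and Col15a1 are higher in all ALI libraries than in Control, Col4a3 to Col4a6 are lower, and Col4a5 in ALI is 6.60 to 8.26 FPKM against 17.6 to 21.0 in Control.

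Markers of cells that sit on these membranes moved with the fall of Col4a3 to Col4a6. Of 10 alveolar type 1 cell markers 9 were called lower and 1 higher in ALI, and their summed level was 2465 to 2527 FPKM in Control, 1405 to 1683 in ALI, 1745 to 2068 in MSC and 1951 to 2209 in tpMSC. Of 10 endothelial markers 9 were called lower in ALI, and their summed level was 841 to 863 FPKM in Control, 403 to 459 in ALI, 471 to 657 in MSC and 624 to 690.2 in tpMSC. Over all tested genes 19.6% were called lower and 20.2% higher in ALI. None of these type 1 cell and endothelial markers was at 0 in any group. Their part in the levels of Col4a3 to Col4a6 was not tested, and Col4a1, Col4a2 and Col15a1 rose in the same ALI libraries. Of 16 tested genes for other basement membrane components 3 rose and 7 fell in ALI against Control, beside 20.2% and 19.6% of all tested genes. Laminin chains Lama3 (-0.91 ± 0.19, edgeR adjusted p 0.00214) and Lamb2 (-0.56 ± 0.08, edgeR adjusted p 0.000288) fell, as did Pxdn (-0.85 ± 0.11, edgeR adjusted p 0.000127), which encodes the peroxidase that forms sulfilimine bonds between type IV collagen ends. The laminin chain Lama1 rose (3.68 ± 0.50, edgeR adjusted p 0.000139), from a mean of 0.03 FPKM in Control to 0.38 in ALI. Lama1 stayed above Control in MSC (3.65 ± 0.50, edgeR adjusted p 0.000796) and tpMSC (4.01 ± 0.50, edgeR adjusted p 0.000867). Lamb2 rose again against ALI in MSC (0.43 ± 0.08, edgeR adjusted p 0.0086) and tpMSC (0.55 ± 0.08, edgeR adjusted p 0.000876). Pxdn was not called in either (edgeR adjusted p 0.218 and 0.111).

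Among fibrillar collagens, Col3a1, the single chain of type III collagen in distensible tissue, stood out. Col3a1 (ENSMUSG00000026043, chr1:45311538-45349706, plus strand) measured 46.6, 36.0 and 45.7 FPKM in Control, 105, 98.5 and 134 in ALI, 93.9, 153 and 76.7 in MSC and 115, 94.1 and 113 in tpMSC. All 9 injured libraries were above all Control libraries and the 3 injured groups overlapped, with MSC replicates 2 and 3 at the extremes. The rise in ALI against Control was 1.46 ± 0.22, edgeR adjusted p 0.000336, a 2.74-fold difference that held under all 19 alternatives. Neither MSC (-0.11 ± 0.22, edgeR adjusted p 0.819) nor tpMSC (-0.09 ± 0.22, edgeR adjusted p 0.817) was called against ALI, and both were called higher than Control (1.35 ± 0.22, edgeR adjusted p 0.0021 and 1.37 ± 0.22, edgeR adjusted p 0.00284). Its start window (chr1:45311288-45311587, plus strand, RefSeq GRCm38.p6) is shown as that of the fibrillar gene with the largest rise, with 37.7% GC and 1 TATAAA in capitals. TATAAA occurs in 13.6% of all windows and in 5 of 38 collagen windows.
Col3a1: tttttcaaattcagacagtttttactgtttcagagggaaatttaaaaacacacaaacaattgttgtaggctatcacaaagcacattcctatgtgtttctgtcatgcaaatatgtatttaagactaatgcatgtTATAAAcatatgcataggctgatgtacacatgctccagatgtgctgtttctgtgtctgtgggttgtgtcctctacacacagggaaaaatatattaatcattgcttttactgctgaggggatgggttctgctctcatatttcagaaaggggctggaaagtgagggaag

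Type I collagen, the most abundant protein of mature fibrils, followed a different course across the groups. Its chains are encoded by Col1a1 and Col1a2. Col1a1 measured 24.2, 23.8 and 25.8 FPKM in Control, 29.0, 29.3 and 40.0 in ALI, 39.1, 71.6 and 30.4 in MSC and 62.0, 43.8 and 57.0 in tpMSC. ALI lay above Control without overlap, tpMSC lay above ALI without overlap, and MSC replicate 2 was the highest library of all. Col1a2 measured 24.5, 21.8 and 24.6 FPKM in Control, 30.5, 31.6 and 38.0 in ALI, 34.6, 57.4 and 30.6 in MSC and 45.7, 35.4 and 47.4 in tpMSC, with Control below all 9 injured libraries and the injured groups overlapping. In ALI against Control Col1a1 was not called (0.47 ± 0.26, edgeR adjusted p 0.169). It was called in edgeR without MSC replicate 2 (adjusted p 0.0293) and with only the 2 groups compared (adjusted p 0.0105). Col1a2 was called in ALI against Control (0.56 ± 0.20, edgeR adjusted p 0.0454) but lost the call under 12 of 19 alternatives, with an edgeR adjusted p up to 0.155 without ALI replicate 3. In tpMSC against Control both rose, Col1a1 by 1.18 ± 0.26, edgeR adjusted p 0.0119 with the call kept under every alternative, and Col1a2 by 0.89 ± 0.20, edgeR adjusted p 0.0133, lost without Control replicate 2 (edgeR adjusted p 0.0594). In MSC against Control both were called (0.95 ± 0.26, edgeR adjusted p 0.026 and 0.80 ± 0.20, edgeR adjusted p 0.0181), and the Col1a1 call was lost in 6 alternatives, among them leaving out MSC replicate 2 (edgeR adjusted p 0.0769) or any 1 Control replicate (0.0656 to 0.0867). The Col1a2 call was lost with only the 2 groups compared (edgeR adjusted p 0.0507) and without Control replicate 1 (0.0536) or Control replicate 2 (0.0745). Against ALI, Col1a1 was not called in MSC (0.47 ± 0.26, edgeR adjusted p 0.294) or in tpMSC (0.70 ± 0.26, edgeR adjusted p 0.0715). For tpMSC the edgeR adjusted p was 0.0066 without MSC replicate 2, which enters that test through the shared estimate of spread.

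Type V collagen, which sits inside type I fibrils and limits their width, is encoded by Col5a1, Col5a2 and Col5a3. Col5a2 measured 11.7, 10.1 and 9.28 FPKM in Control, 14.1, 15.9 and 17.7 in ALI, 15.9, 28.0 and 16.5 in MSC and 17.9, 16.0 and 18.4 in tpMSC, so that Control was below all other libraries. It rose in ALI against Control (0.68 ± 0.19, edgeR adjusted p 0.0133), a call lost without Control replicate 3 (edgeR adjusted p 0.0572) or ALI replicate 3 (edgeR adjusted p 0.0552). Col5a2 was also higher than Control in MSC (0.97 ± 0.19, edgeR adjusted p 0.00528) under every alternative and in tpMSC (0.79 ± 0.19, edgeR adjusted p 0.0173), where the call was lost without Control replicate 2, Control replicate 3 or tpMSC replicate 3 (edgeR adjusted p 0.0543 to 0.0655). The gene lies tail to tail with Col3a1 at a distance of 24614 bases on chromosome 1, and both rose. Col5a3 measured 0.72, 0.82 and 0.77 FPKM in Control, 0.86, 0.81 and 1.12 in ALI, 1.18, 2.24 and 0.93 in MSC and 1.52, 1.23 and 1.47 in tpMSC. It was called against Control in MSC (0.93 ± 0.27, edgeR adjusted p 0.0329) and tpMSC (0.90 ± 0.27, edgeR adjusted p 0.0408), both calls that were lost under 9 or more alternatives, the first without MSC replicate 2 (edgeR adjusted p 0.108). Col5a1 measured 6.94, 6.14 and 6.04 FPKM in Control, 5.98, 5.54 and 7.99 in ALI, 6.81, 9.99 and 5.53 in MSC and 8.56, 7.31 and 8.41 in tpMSC and was called in no comparison of the main fit. With only the 2 groups compared it was called in tpMSC against Control (edgeR adjusted p 0.0167).

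Col27a1, a fibrillar collagen best known from growing cartilage, fell in injury. It measured 2.87, 2.58 and 2.70 FPKM in Control, 1.07, 0.90 and 1.16 in ALI, 1.88, 1.39 and 1.65 in MSC and 1.80, 1.94 and 1.50 in tpMSC. Control, treated and ALI libraries formed 3 ranges that did not touch. Col27a1 fell in ALI against Control (-1.32 ± 0.13, edgeR adjusted p 1.87e-05), rose against ALI in MSC (0.60 ± 0.13, edgeR adjusted p 0.0147) and tpMSC (0.72 ± 0.13, edgeR adjusted p 0.00251), and stayed below Control in MSC (-0.72 ± 0.13, edgeR adjusted p 0.00361) and tpMSC (-0.60 ± 0.13, edgeR adjusted p 0.011). The call in MSC against ALI was lost without ALI replicate 1 (edgeR adjusted p 0.0508) or MSC replicate 1 (edgeR adjusted p 0.0634). The low fibrillar genes were Col11a2 (0.54 to 1.06 FPKM), Col24a1 (at most 0.26 FPKM), Col11a1 and Col2a1. Col2a1, the cartilage collagen, had 3, 15 and 12 read counts in the Control libraries, 0 in each ALI library, 0, 12 and 1 in MSC and 4, 0 and 5 in tpMSC. With 3 counts over the ALI group taken as its upper limit, the observed level was 9.18-fold that limit in Control, 3.96-fold in MSC and 2.79-fold in tpMSC. These ratios do not include the counting error of the few counts in Control, MSC and tpMSC. Of the 13 MSC counts 12 were in replicate 2, and the 1 count in the other MSC libraries is below the 3 counts taken as the limit. The call of Col2a1 in ALI against Control (edgeR adjusted p 0.0423) was lost under 12 of 19 alternatives. Of 5 tested cartilage markers 2 were called lower in ALI, beside 19.6% of all tested genes. The summed level of the cartilage markers was 16.0 to 17.8 FPKM in Control, 9.75 to 10.5 in ALI, 11.1 to 15.3 in MSC and 13.5 to 15.7 in tpMSC, nearly all of it Matn4. The cartilage gene Cnmd had no count in Control, ALI or MSC and Snorc none in ALI, MSC or tpMSC, while Acan had none in ALI or tpMSC and Matn1 none in Control or tpMSC. The part of cartilage in these values was not tested.

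**Figure D3:**
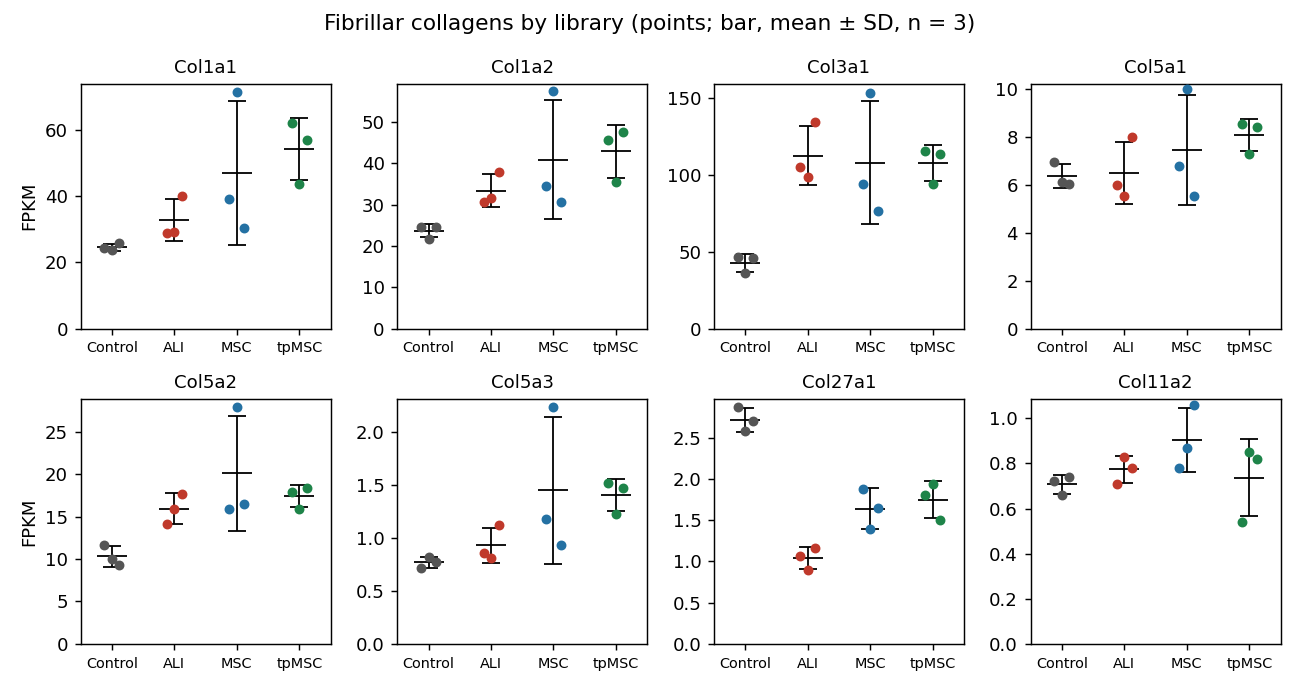
FPKM of 8 fibrillar collagens (y axis) in each library of the 4 groups (x axis), with points for libraries and bars for the mean ± SD (n = 3). Col3a1 is 36.0 to 46.6 FPKM in Control and 98.5 to 134 in ALI, Col27a1 is lowest in ALI, and MSC replicate 2 is the highest MSC library for types I, III and V.

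Markers of the mesenchymal cells that make fibrillar collagen did not follow these genes in one direction. Of 10 markers of alveolar and adventitial fibroblasts 6 were called lower and 1 higher in ALI, beside 19.6% and 20.2% of all tested genes. The summed level of these markers was 2130.1 to 2172 FPKM in Control, 733 to 1178 in ALI, 1373 to 1656 in MSC and 1598 to 2025 in tpMSC. Most of the Control sum is Inmt, at 1425 ± 43.2 FPKM in Control and 222 ± 85.8 in ALI (mean ± SD, n = 3). Of 10 smooth muscle and pericyte markers 2 were called lower in ALI, a share near the 19.6% of all tested genes. Of the same markers 4 were called higher in MSC than in ALI, beside 5.03% of all tested genes. In tpMSC against ALI 8 of these markers were called higher, beside 11.6% of all tested genes. Their summed level was 118 to 142 FPKM in Control, 96.2 to 140.4 in ALI, 141 to 238 in MSC and 236 to 270.1 in tpMSC. The highest MSC value was again replicate 2. In tpMSC against Control 8 of these 10 markers were called higher, beside 9.1% of all tested genes. No marker of either list was at 0 in any group. The part of these cells in the levels of Col1a1, Col1a2 and Col3a1 was not tested.

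Ratios between chains within a library do not depend on the total depth, and they showed the shifts inside types IV, III and I (ratios chosen after the values were seen). The summed Col4a1 and Col4a2 level was 2.24 ± 0.0291 times that of Col4a3, Col4a4 and Col4a5 in Control (SD, n = 3), 7.00 ± 1.98 in ALI, 4.41 ± 1.31 in MSC and 4.74 ± 0.550 in tpMSC. ALI replicates ran from 5.10 to 9.05 and MSC replicate 2, at 5.93, overlapped them. The Col3a1 to Col1a1 ratio was 1.92, 1.52 and 1.77 in Control, 3.62, 3.37 and 3.35 in ALI, 2.40, 2.14 and 2.53 in MSC and 1.86, 2.15 and 1.99 in tpMSC. ALI was highest without overlap, and tpMSC overlapped Control. Within the second type IV network the Col4a5 to Col4a3 ratio was 0.686 ± 0.0462 in Control, 0.433 ± 0.0251 in ALI, 0.551 ± 0.00810 in MSC and 0.544 ± 0.0234 in tpMSC. The Col1a1 to Col1a2 ratio varied less, from 0.976 ± 0.0679 in ALI to 1.27 ± 0.0804 in tpMSC. Over 9 ratios and 6 comparisons, 54 exact two-sided permutation tests of log2 ratios were run. With 3 libraries against 3 the smallest p they can give is 0.1 (0.2 after Benjamini-Hochberg adjustment over the 54), so none could pass the threshold.

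**Figure D4:**
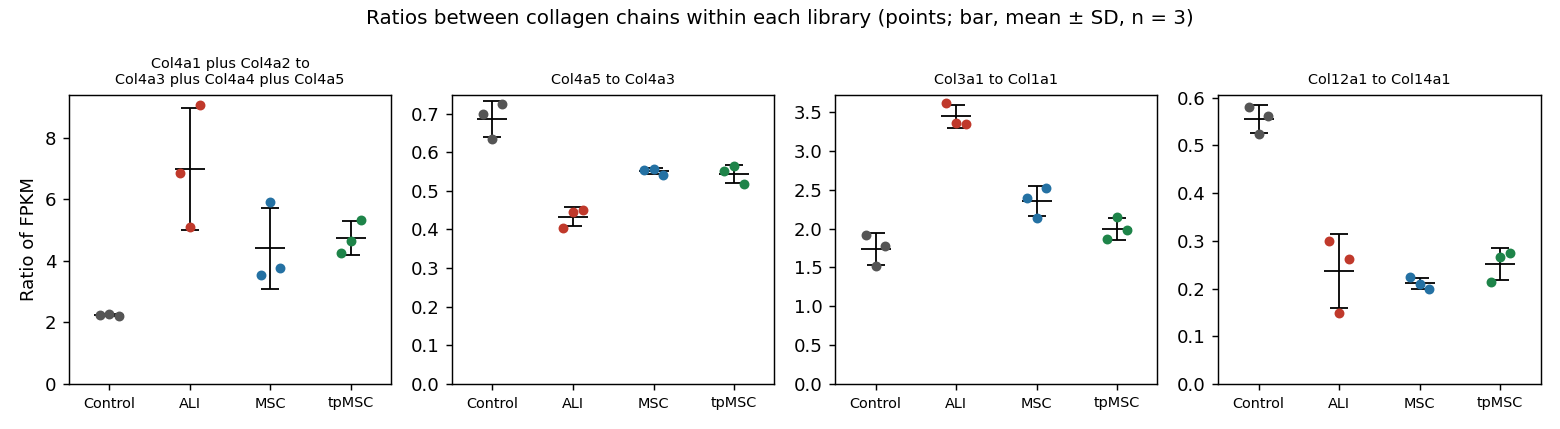
Ratios of FPKM between collagen chains (y axis) in each library of the 4 groups (x axis), with points for libraries and bars for the mean ± SD (n = 3). The ratio of the common to the alveolar type IV chains is 2.22 to 2.27 in Control and 5.10 to 9.05 in ALI, and the Col3a1 to Col1a1 ratio is highest in ALI.

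Type VI collagen forms beaded filaments around cells, from Col6a1 and Col6a2 chains and a further chain that is Col6a3 or one of the rarer Col6a4, Col6a5 and Col6a6. Col6a3 measured 13.8, 11.7 and 13.2 FPKM in Control, 6.88, 6.33 and 7.31 in ALI, 9.40, 10.1 and 8.73 in MSC and 12.3, 12.0 and 13.5 in tpMSC. ALI was lowest, MSC lay between ALI and the other groups, and tpMSC overlapped Control. The fall in ALI against Control was -0.85 ± 0.09, edgeR adjusted p 2.20e-05, and the rise against ALI was 0.41 ± 0.09, edgeR adjusted p 0.0132 in MSC, lost without ALI replicate 1 (edgeR adjusted p 0.0522), and 0.86 ± 0.09, edgeR adjusted p 9.56e-05 in tpMSC. Col6a3 stayed below Control in MSC (-0.44 ± 0.09, edgeR adjusted p 0.00558) and was not called in tpMSC against Control (0.00 ± 0.09, edgeR adjusted p 0.981). Col6a1 measured 68.8, 59.8 and 60.6 FPKM in Control, 47.3, 55.3 and 47.2 in ALI, 60.3, 81.3 and 58.0 in MSC and 67.2, 71.1 and 67.0 in tpMSC. Col6a2 measured 23.3, 20.7 and 21.5 FPKM in Control, 13.4, 16.7 and 14.9 in ALI, 19.5, 28.6 and 18.5 in MSC and 24.2, 25.0 and 25.7 in tpMSC. For both genes ALI was lowest and MSC replicate 2 was the highest library. Col6a2 fell in ALI (-0.48 ± 0.15, edgeR adjusted p 0.0201, lost without any 1 of Control replicate 1, ALI replicate 1 and ALI replicate 3, with edgeR adjusted p up to 0.0846) and Col6a1 was not called (-0.28 ± 0.12, edgeR adjusted p 0.0962, edgeR adjusted p 0.0201 without MSC replicate 2). In tpMSC against ALI both rose (0.43 ± 0.12, edgeR adjusted p 0.0265 for Col6a1 and 0.71 ± 0.15, edgeR adjusted p 0.00476 for Col6a2). The Col6a1 call was lost without ALI replicate 1, ALI replicate 3, tpMSC replicate 1 or tpMSC replicate 2 (edgeR adjusted p 0.0585 to 0.098), and the Col6a2 call held under every alternative. In MSC against ALI Col6a2 was also called higher (edgeR adjusted p 0.0443). That call was lost under several alternatives, with an edgeR adjusted p of 0.0741 without MSC replicate 2 and 0.167 without ALI replicate 1. Col6a1 was not called in MSC against ALI (edgeR adjusted p 0.0859), while DESeq2 called it (adjusted p 0.0386). The rarer chains lie in a row on chromosome 9 and were at most 0.50 FPKM in every library. Col6a5 (-1.40 ± 0.29, edgeR adjusted p 0.00241) and Col6a6 (-2.02 ± 0.38, edgeR adjusted p 0.00117) fell in ALI against Control, and Col6a4, the third of the row, was not called (-0.22 ± 0.31, edgeR adjusted p 0.623). Col6a6 was called higher than ALI in MSC (edgeR adjusted p 0.0431) and in tpMSC (edgeR adjusted p 0.03975). Both calls were lost under several alternatives, among them leaving out ALI replicate 1 (edgeR adjusted p 0.15 and 0.135).

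Fibril-associated collagens sit on the surface of fibrils, and Col12a1, Col16a1 and Col20a1 fell in ALI against Control. Col12a1, which bridges fibrils in tissue under tension, had the largest fall of these. It measured 3.65, 3.51 and 3.49 FPKM in Control, 1.15, 0.76 and 1.41 in ALI, 1.67, 1.61 and 1.20 in MSC and 1.53, 1.52 and 2.11 in tpMSC, so that all injured libraries lay below all Control libraries. Its change was -1.62 ± 0.21, edgeR adjusted p 9.24e-05 in ALI, -1.24 ± 0.20, edgeR adjusted p 0.00208 in MSC and -1.01 ± 0.20, edgeR adjusted p 0.00774 in tpMSC, each against Control. Against ALI it was not called in MSC (0.38 ± 0.20, edgeR adjusted p 0.276), and the call in tpMSC (0.62 ± 0.20, edgeR adjusted p 0.048) was lost under 16 of 19 alternatives. Col14a1, a relative that also binds fibrils, measured 6.28, 6.70 and 6.22 FPKM in Control, 3.84, 5.10 and 5.38 in ALI, 7.47, 7.68 and 6.01 in MSC and 7.16, 5.72 and 7.66 in tpMSC. Its ALI libraries lay below all Control libraries, without a call in ALI against Control (edgeR adjusted p 0.0621). That comparison was called in both limma fits (adjusted p 0.0398 and 0.0358). It was also called in edgeR with only the 2 groups compared (adjusted p 0.0428) and without ALI replicate 3 (0.0449) or MSC replicate 3 (0.0484). Unlike those of Col12a1, the treated libraries of Col14a1 overlapped Control. Col14a1 was called higher than ALI in MSC (0.51 ± 0.14, edgeR adjusted p 0.0417) and in tpMSC (0.49 ± 0.14, edgeR adjusted p 0.0269). The MSC call was lost under 12 of 19 alternatives (edgeR adjusted p up to 0.14, and 0.0927 without MSC replicate 2). The tpMSC call was lost with only the 2 groups compared and without ALI replicate 1, tpMSC replicate 1 or tpMSC replicate 3 (edgeR adjusted p 0.0569 to 0.093). The Col12a1 to Col14a1 ratio was accordingly 0.555 ± 0.0291 in Control, 0.237 ± 0.0783 in ALI, 0.211 ± 0.0120 in MSC and 0.252 ± 0.0332 in tpMSC.

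Col16a1, also fibril-associated, was low in ALI alone. It measured 7.67, 6.81 and 6.44 FPKM in Control, 4.55, 4.24 and 4.45 in ALI, 6.77, 8.25 and 6.91 in MSC and 7.86, 8.82 and 7.35 in tpMSC. The ALI libraries lay close together and below all others, and both treated groups overlapped Control. The fall in ALI (-0.60 ± 0.10, edgeR adjusted p 0.000572) and the rises against ALI in MSC (0.68 ± 0.10, edgeR adjusted p 0.002) and tpMSC (0.83 ± 0.10, edgeR adjusted p 0.000213) held under all 19 alternatives. Col20a1 measured 2.97, 2.50 and 2.36 FPKM in Control, 1.30, 1.30 and 1.80 in ALI, 2.14, 1.76 and 1.82 in MSC and 2.17, 2.44 and 1.83 in tpMSC. It fell in ALI (-0.77 ± 0.16, edgeR adjusted p 0.00272) and was called in tpMSC against ALI (0.52 ± 0.16, edgeR adjusted p 0.0373), the second call being lost under 8 alternatives. Col9a3 was low at 0.20 to 0.50 FPKM and was not called, and it shares 6.07% of its exonic bases with the opposite-strand gene Tcfl5.

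Collagens that anchor epithelium were also low in injury. Col7a1, the anchoring fibril collagen under epithelium, measured 2.09, 1.82 and 1.74 FPKM in Control, 1.13, 1.18 and 1.07 in ALI, 1.61, 1.54 and 1.59 in MSC and 1.97, 1.77 and 1.37 in tpMSC, with ALI below every other library. It fell in ALI (-0.68 ± 0.12, edgeR adjusted p 0.000992) and rose against ALI in tpMSC (0.57 ± 0.12, edgeR adjusted p 0.00625) under every alternative, while the call in MSC against ALI (0.44 ± 0.12, edgeR adjusted p 0.0426) was lost under 13. Col17a1, a transmembrane collagen of hemidesmosomes, measured 1.40, 1.19 and 1.34 FPKM in Control, 0.51, 0.48 and 0.30 in ALI, 0.70, 0.52 and 0.43 in MSC and 0.91, 0.89 and 0.61 in tpMSC. It fell in ALI (-1.54 ± 0.24, edgeR adjusted p 0.000367), remained below Control in MSC (-1.24 ± 0.24, edgeR adjusted p 0.00441) and rose against ALI in tpMSC (0.86 ± 0.24, edgeR adjusted p 0.0216), where the call was lost without ALI replicate 3 (edgeR adjusted p 0.0749), tpMSC replicate 1 (0.0775) or tpMSC replicate 2 (0.0795). In tpMSC against Control it was not called (edgeR adjusted p 0.071), although all tpMSC libraries lay below all Control libraries. That comparison was called by DESeq2 (adjusted p 0.0277) and by limma on log2(FPKM + 1) (adjusted p 0.0271). It was also called in edgeR with the replicate block (adjusted p 0.02955) or only the 2 groups compared (adjusted p 0.0363). Airway basal cell markers, which Col17a1 often accompanies, were near the floor, with a summed level of 0.39 to 3.27 FPKM over all libraries. Krt5 had no count in Control, and 1 of 4 markers was called higher in ALI, beside 20.2% of all tested genes.

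Among the other transmembrane collagens, Col13a1, a cell-surface collagen of adhesion sites, measured 19.4, 19.8 and 19.1 FPKM in Control, 11.5, 11.6 and 9.48 in ALI, 13.8, 15.1 and 13.9 in MSC and 19.0, 23.5 and 17.6 in tpMSC. The 4 groups did not overlap except for tpMSC with Control. Col13a1 fell in ALI (-0.78 ± 0.11, edgeR adjusted p 0.00017) under every alternative. The rise in tpMSC against ALI (0.86 ± 0.11, edgeR adjusted p 0.000296) also held under every alternative. In MSC against ALI it was not called (0.35 ± 0.11, edgeR adjusted p 0.0634). That comparison was called by DESeq2 (adjusted p 0.0255) and in both limma fits (adjusted p 0.04135 and 0.0371). It was also called in edgeR with the replicate block (adjusted p 0.0328) and without tpMSC replicate 2 (0.0281) or tpMSC replicate 3 (0.0452). Col13a1 stayed below Control in MSC (-0.43 ± 0.11, edgeR adjusted p 0.0174). This call was lost without Control replicate 1 (edgeR adjusted p 0.0543), Control replicate 2 (0.0641) or MSC replicate 3 (0.0523). Col23a1, also a transmembrane collagen, measured 13.2, 13.4 and 14.1 FPKM in Control, 19.5, 20.4 and 17.2 in ALI, 16.4, 18.7 and 14.4 in MSC and 15.0, 15.4 and 17.6 in tpMSC. It was the 1 gene of the others that rose in ALI (0.55 ± 0.10, edgeR adjusted p 0.00125), under every alternative. Its treated libraries lay above all Control libraries, without a call in either comparison with ALI or with Control. Each of these comparisons was called under some alternative. Without MSC replicate 2 the edgeR adjusted p was 0.0388 in MSC against ALI, 0.0474 in tpMSC against ALI and 0.0473 in tpMSC against Control. MSC against Control was called by DESeq2 (adjusted p 0.03365) and in edgeR without MSC replicate 3 (adjusted p 0.0333).

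Col8a1 and Col8a2 form the short-chain network of vessel walls and corneal membranes. Col8a1 measured 0.67, 0.89 and 0.88 FPKM in Control, 0.48, 0.54 and 0.84 in ALI, 1.10, 2.40 and 0.92 in MSC and 1.85, 1.75 and 1.59 in tpMSC. All tpMSC libraries were above all Control and ALI libraries, and MSC replicate 2 was the highest of the 12. Col8a1 was not called in ALI against Control (-0.33 ± 0.32, edgeR adjusted p 0.448). It was called higher than ALI in tpMSC (1.45 ± 0.33, edgeR adjusted p 0.00784) under every alternative and in MSC (1.20 ± 0.32, edgeR adjusted p 0.0381) with 13 losses, 0.0864 without MSC replicate 2, and higher than Control in tpMSC (1.12 ± 0.32, edgeR adjusted p 0.0363) with 8 losses. Col8a2 measured 2.32, 2.26 and 3.47 FPKM in Control, 1.99, 1.53 and 1.66 in ALI, 2.29, 2.01 and 2.56 in MSC and 2.89, 2.22 and 2.22 in tpMSC. It fell in ALI (-0.57 ± 0.18, edgeR adjusted p 0.0263), a call lost without Control replicate 3 (edgeR adjusted p 0.122), ALI replicate 2 (0.0867) or ALI replicate 3 (0.0752).

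**Figure D5:**
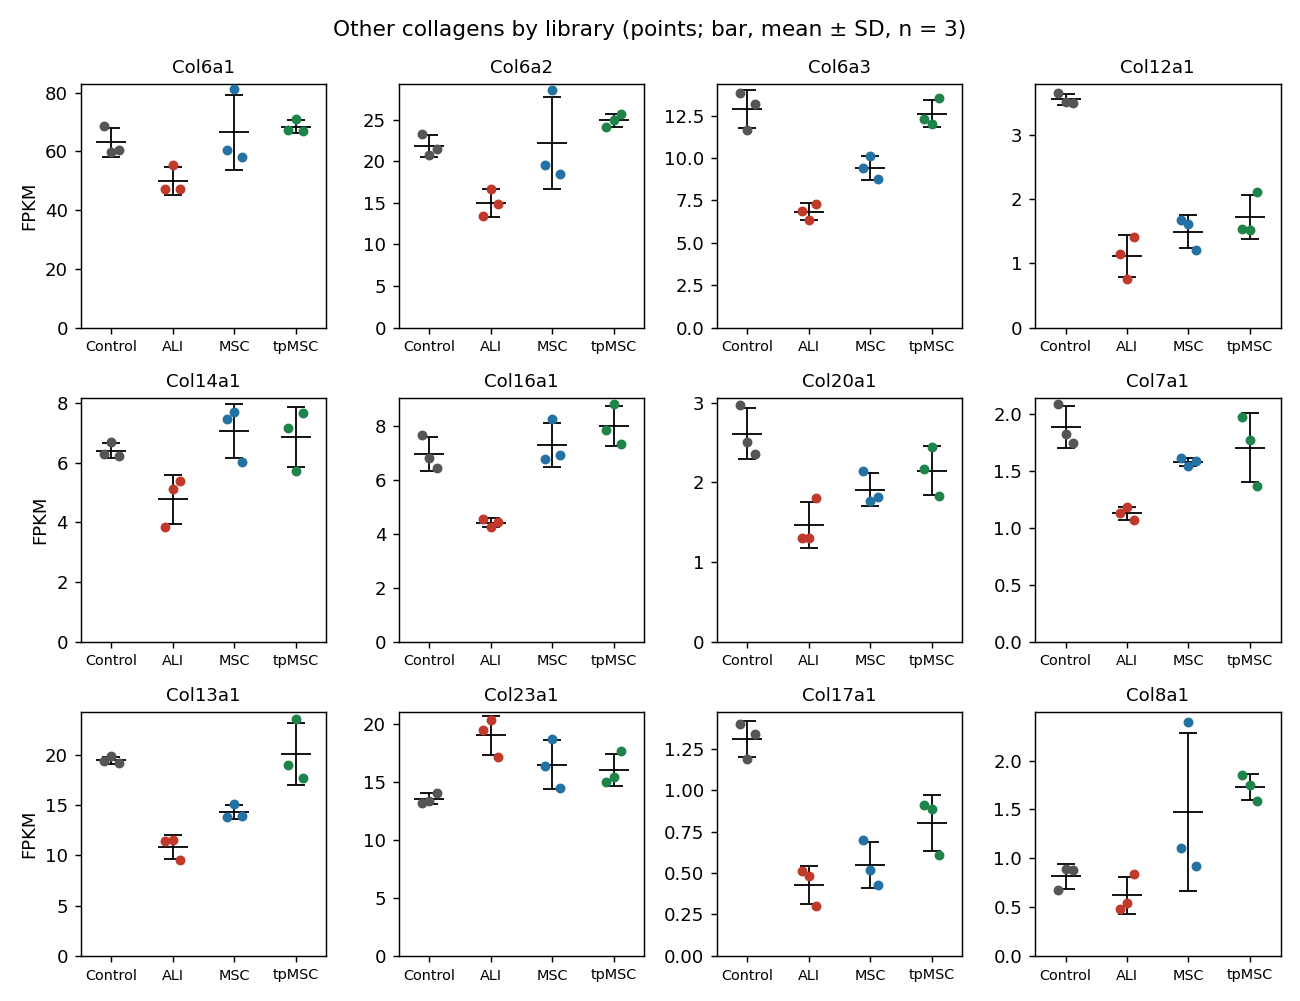
FPKM of 12 of the other collagens (y axis) in each library of the 4 groups (x axis), with points for libraries and bars for the mean ± SD (n = 3). The ALI mean is the lowest for Col6a1, Col6a2, Col6a3, Col12a1, Col14a1, Col16a1, Col20a1, Col7a1, Col13a1 and Col17a1, Col12a1 stays at 2.11 FPKM or less in all injured libraries, and Col23a1 runs the other way.

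Against untreated injured lung, the collagen calls were almost all upward. In MSC against ALI 11 of 40 tested collagen genes were called higher and 1 lower, where 5.03% of all tested genes were called higher and 5.21% lower. The median log2 fold change was 0.45 for collagens and 0.02 for all genes. This count depended on single libraries, with 2 collagen genes called without ALI replicate 1, 4 without MSC replicate 1, 6 without ALI replicate 3 or any 1 Control replicate, 7 without ALI replicate 2 or MSC replicate 3, and 12 with all libraries. Without MSC replicate 2, 7 were called higher and 2 lower. Among the calls lost without that library were Col7a1 (edgeR adjusted p 0.0573) and Col6a6 (edgeR adjusted p 0.0546). In tpMSC against ALI 17 were called higher and 0 lower, where 11.6% of all tested genes were called higher and 11.5% lower. The median was 0.54 for collagens and 0.01 for all genes. Beside the 0, 3 collagen genes were lower at an unadjusted p under 0.05 in edgeR, and DESeq2 called 2 lower, Col15a1 and Col6a4. Without tpMSC replicate 1 the count fell to 8, and without ALI replicate 1 or tpMSC replicate 2 it was 11. By class, the genes called higher were 1 fibrillar, 3 basement membrane and 7 other collagens in MSC, and 1, 4 and 12 in tpMSC.

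The treatments were not separated by any collagen gene in edgeR. In tpMSC against MSC 0 of 40 were called, where 0.0175% of all tested genes were called higher and 0.0131% lower. At an unadjusted p under 0.05, 3 collagen genes were higher in tpMSC and 1 was lower, and without MSC replicate 2 these numbers were 13 and 1. The nearest were Col6a3, at 0.45 ± 0.09 (edgeR adjusted p 0.107, DESeq2 adjusted p 0.00126), and Col13a1, at 0.51 ± 0.11 (edgeR adjusted p 0.114, DESeq2 adjusted p 0.00264), and for both all tpMSC libraries lay above all MSC libraries. Col13a1 was called in edgeR without tpMSC replicate 3 (adjusted p 0.029), the 1 collagen gene called in any such fit. Col24a1 was lower in tpMSC, at -1.82 ± 0.52 (edgeR adjusted p 0.178, DESeq2 adjusted p 0.031), on levels of at most 0.26 FPKM. DESeq2 called these 3 genes, and 670 genes in all against 7 in edgeR. A missed threshold at this number of libraries does not show that the treatments act alike.

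Relative to Control, the calls in treated lung were mainly fibrillar and basement membrane genes that were higher. In MSC against Control 8 of 40 tested collagen genes were called higher and 6 lower, where 10.7% of all tested genes were called higher and 8.0% lower. In tpMSC against Control 9 were called higher and 4 lower, where 9.1% of all tested genes were called higher and 6.79% lower. In both, 5 fibrillar and 3 basement membrane genes were called higher, which were Col1a1, Col1a2, Col3a1, Col5a2, Col5a3, Col4a1, Col4a2 and Col15a1. The median log2 fold change of fibrillar collagens was 0.93 in MSC and 0.79 in tpMSC against Control, beside 0.20 in ALI. Genes called lower in both were Col12a1, Col27a1 and Col4a5, to which MSC added Col6a3, Col13a1 and Col17a1 and tpMSC added the low Col6a4, whose groups overlapped. Without MSC replicate 2 the MSC counts were 5 higher and 5 lower. Without Control replicate 1 the total in MSC was 9 rather than 14, and the total in tpMSC was 7 rather than 13 without Control replicate 2 and 8 without Control replicate 3 or tpMSC replicate 3.

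The low end of the family held little signal. Of the 4 genes that did not pass the filter, Col9a1 had no count in any library, and Col9a2, Col10a1 and Col19a1, which belong to cartilage and other specialised tissues, had at most 8 counts in a library. Col11a1, Col22a1, Col25a1 and Col26a1 passed the filter with group means of at most 0.0533 FPKM and were not called. Col28a1 was at most 0.35 FPKM. In all, 10 tested collagen genes were called in no comparison.

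Genes that process, crosslink and bind collagen chains moved beside them, with unequal directions. Beside the counts below, 20.2% of all tested genes were called higher and 19.6% lower in ALI against Control. Of 19 tested genes for chain modification and folding, 10 rose and 4 fell in ALI against Control, with a median log2 fold change of 0.27. P4hb, a subunit of the prolyl hydroxylase that stabilises the helix, rose (0.75 ± 0.10, edgeR adjusted p 0.000161), while Plod2, the lysyl hydroxylase of telopeptides, fell (-0.96 ± 0.13, edgeR adjusted p 0.00015), as did Colgalt2, which adds galactose to collagen (-2.18 ± 0.20, edgeR adjusted p 1.15e-05). Of 5 crosslinking enzymes, Lox alone was called in ALI, with a rise of 3.12 ± 0.21, edgeR adjusted p 1.51e-06. Lox measured 8.85 ± 1.66 FPKM in Control, 73.6 ± 5.31 in ALI, 51.0 ± 14.4 in MSC and 35.9 ± 2.45 in tpMSC (mean ± SD, n = 3), and it fell against ALI in tpMSC (-1.06 ± 0.19, edgeR adjusted p 0.00236). Of 7 tested propeptide processing genes, 1 rose and 3 fell in ALI, the 1 that rose being Adamts3 (1.84 ± 0.27, edgeR adjusted p 0.000231). The procollagen C-proteinase enhancers Pcolce (-0.77 ± 0.11, edgeR adjusted p 0.000173) and Pcolce2 (-2.59 ± 0.19, edgeR adjusted p 2.26e-06) were both lower, and Pcolce2 measured 56.3 ± 1.68 FPKM in Control and 8.95 ± 1.74 in ALI. Both rose against ALI in tpMSC (1.02 ± 0.11, edgeR adjusted p 0.000116 and 1.86 ± 0.18, edgeR adjusted p 7.00e-05) and in MSC (0.59 ± 0.11, edgeR adjusted p 0.00582 and 1.47 ± 0.18, edgeR adjusted p 0.000798).

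Of 12 fibril-binding proteoglycans and glycoproteins 3 rose and 5 fell in ALI against Control, and 8 rose against ALI in each treated group. Over all tested genes 20.2% were called higher and 19.6% lower in ALI against Control. The share called higher than ALI was 5.03% in MSC and 11.6% in tpMSC. Fmod, which regulates fibril growth, fell in ALI (-2.24 ± 0.22, edgeR adjusted p 1.42e-05), and so did Tnxb, a tenascin of collagen-rich tissue (-2.29 ± 0.22, edgeR adjusted p 1.37e-05), and Prelp, a basement membrane anchor (-1.35 ± 0.13, edgeR adjusted p 1.51e-05). Of 10 collagen receptors 1 rose and 4 fell in ALI, the 1 that rose being Lair1 (1.77 ± 0.28, edgeR adjusted p 0.00042). Mrc2, which takes up collagen for degradation, was lower (-0.99 ± 0.08, edgeR adjusted p 4.45e-06) and rose against ALI in MSC (0.97 ± 0.08, edgeR adjusted p 7.89e-05) and tpMSC (1.29 ± 0.08, edgeR adjusted p 8.77e-06). Of 13 TGF-beta ligands and targets 5 rose and 5 fell in ALI, the ligand genes Tgfb2 (-0.91 ± 0.13, edgeR adjusted p 0.000155) and Tgfb3 (-1.11 ± 0.13, edgeR adjusted p 5.30e-05) being lower and the receptor gene Tgfbr1 higher (0.98 ± 0.10, edgeR adjusted p 2.62e-05). Among markers of other tissue that a lung sample can hold, 2 of 6 mesothelial and 1 of 5 tested adipocyte markers were called lower in ALI than in Control, beside 19.6% of all tested genes, and the adipocyte hormone gene Lep had no count in ALI. Of 7 tested cardiac muscle markers 2 were called higher in tpMSC than in ALI, beside 11.6% of all tested genes. The part of these other tissues in the collagen levels was not tested.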

How the data were processed

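Poly(A) RNA from 12 lung libraries was made into dUTP-marked paired-end libraries and sequenced on a NovaSeq instrument, per the labels' protocols. The deposited table holds read counts and FPKM for 38349 genes, both made by the authors. Tools listed without roles in the submitters' processing notes are HISAT2 2.0.4, cutadapt 1.9, StringTie 1.3.4d, edgeR and DESeq2, with the build GRCm38, and the sources used here do not give the counting tool, its strand setting or the annotation release. Reads shared by overlapping or similar genes could therefore be split in unknown ways.

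Deposited counts were tested with edgeR 4.0.16 (filterByExpr, TMM scaling, quasi-likelihood test) in R 4.3.3. One mean per group was fitted over all 12 libraries, p-values were adjusted by the Benjamini-Hochberg method over 22915 genes, and a gene was called under 0.05. The SE is the log2 fold change divided by the root of its F statistic. This SE includes the spread between libraries, because the F statistic is that of the quasi-likelihood test. The upper limit taken for a group with no counts covers counting error only. The 19 alternatives were DESeq2 1.42.0, RLE scaling, no filter, fitting only the groups compared, a replicate block, limma 3.58.1 on log2(FPKM + 1) and log2(FPKM + 0.1), and leaving out each library. The procedure was tested on simulated counts. Library totals of 53083002 to 70209229 limit mainly genes with few counts. No within-group pair of libraries agreed within sampling noise, the chi-square per gene being at least 19.5 over 12 pairs.

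Positions are those of GENCODE M21 (GRCm38), matched by Ensembl ID for 44 of 44 collagen genes, and promoter windows are from RefSeq (GRCm38.p6). Per-library FPKM values were printed for collagen genes called in at least 1 comparison whose mean reached 1 FPKM in some group and for the 5 with the highest mean, and from each other list up to 4 genes with the smallest p in ALI against Control could be named. Col18a1, Col5a1 and Col2a1 were added after their values were seen. The collagen genes, the gene lists and the markers were chosen with earlier results of these data known.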

Additional observations from a re-analysis of the deposited data

How the results depend on the processing

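Of 150 pairs of a named collagen gene and a comparison, 72 were called, 40 of them under every one of the 19 alternatives and 32 not under at least 1, while 20 uncalled pairs were called under at least 1 and 0 reversed direction. Collagen genes called in MSC against ALI numbered 12, but 6 with no filter on low counts and 4 with only the 2 groups compared, and over all genes the count went from 2347 to 1715 and 1221. DESeq2 called 3 collagen genes in tpMSC against MSC beside 0 in edgeR. Leaving out single libraries gave 20 to 26 called in ALI against Control, 2 to 12 in MSC against ALI, 8 to 20 in tpMSC against ALI, 0 to 1 in tpMSC against MSC, 9 to 15 in MSC against Control and 7 to 15 in tpMSC against Control. Fits without a library have fewer samples, and the cause of the other differences was not tested. Same-numbered libraries were not treated as paired in the main fit, because the labels give no sign of pairing. The correlations of their deviations ran from -0.108 to 0.104 over 18 pairs, with 4 of 12 libraries closest to their own number. With so few libraries these values cannot exclude a shared day or litter. With the replicate block the counts were 22, 8, 13, 0, 13 and 12, where the fit without it gave 24, 12, 17, 0, 14 and 13 in the order of the ranges above. RLE scaling left the split in ALI against Control at 7 higher and 17 lower. Changes of low genes such as Col2a1, with 52 counts over all libraries, rest on few counts.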
